A study of Mus musculus with 12 samples.

Results

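Polyamine metabolism was followed through 8 genes of mouse embryonic stem cells (mESCs), chosen by name for the enzymes that make polyamines (Odc1, Amd1, Srm and Sms), the proteins that tune the first of these enzymes (Oaz1, Oaz2 and Azin1) and the acetyltransferase that starts polyamine breakdown (Sat1). All 8 had values, as 8 of the 34079 GENCODE M1 genes with an exon entry and 34 of 121429 transcripts. The cells were the XY line DTCM23/49, grown on gelatin in medium with serum and LIF, and every culture received 200 µM of the uridine analog 4-thiouridine (4sU), which cells incorporate into new transcripts. After 15, 30 or 60 min, labeled RNA was biotinylated and pulled down on streptavidin, and total RNA was sequenced beside it. Each of these 6 groups held 2 replicates, which gave 6 labeled and 6 total RNA libraries. There were no untreated cells and no other genotype, so the data compare newly made with steady-state RNA of 1 cell line. The 2 replicates came from 1 culture that had been split and passaged separately. The 6 libraries of each fraction share these 2 cultures, and the main tests take the libraries as separate. Thus p-values measure the spread between libraries of these cultures and not between independent cultures.

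Polyamines are small positively charged molecules that bind nucleic acids and are needed for growth, and fast-dividing cells such as mESCs make them at a high rate. Ornithine decarboxylase (ODC1) makes putrescine, and spermidine synthase (SRM) and spermine synthase (SMS) lengthen it with aminopropyl groups that come from S-adenosylmethionine after its decarboxylation by AMD1. When polyamines accumulate, ribosomes shift frame on antizyme mRNA, full-length antizyme (OAZ1, OAZ2) delivers ODC1 to the proteasome, and the antizyme inhibitor AZIN1 binds antizyme in place of ODC1, while SAT1 acetylates spermidine and spermine for export or oxidation.

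Values are abundances of the exons or introns of a transcript in a deposited unit whose scale is not named in the sources used here. They were taken as normalized for length, because among protein-coding genes with 1 transcript the 1009 with the shortest introns had a median intron length of 2230 bases and the 1009 with the longest 57487 bases, while their median intronic value in total RNA was 3.07 and 7.05. For exons, the 1245 with the shortest transcripts had a median of 694 bases and a median value of 9.02. The 1241 with the longest had 4054 bases and 24.25, so the median exonic value was higher for long transcripts, but rose less steeply than length. A line through all nonzero exonic values on log2 scales had a slope of -0.0361 on length, with no rise. Comparisons between genes rest on the reading that values are normalized for length, and comparisons of 1 gene between libraries do not. Library sums lie between 19988830 and 19992901, whatever the sequencing depth, so the values do not keep the depth of single libraries and no counting error is given. Values are relative within a library, and in bulk RNA fewer cells of a type and less RNA per cell cannot be told apart. Embryonic stem cell markers matched the label, with 8 of 8 at 20 or more in total RNA, on average from 163 for Zfp42 to 6766 for Dppa5a. Of the markers of other cells, 0 of 5 for fibroblasts, 0 of 5 for endoderm, 0 of 4 for mesoderm and 0 of 3 for trophectoderm reached 20 in total RNA, and their most abundant genes were Col1a1 at 3.09, Gata4 at 11.6, Eomes at 11.6 and Krt18 at 13.8. These marker values are exonic sums. The intronic sum of Gata4 was higher, at 89.7 to 203 in total RNA, while the introns of Gata6, Sox17, Sox7 and Foxa2 had no value there. What the Gata4 intron signal stands for was not tested. Of 4 neuroectoderm markers, 3 were in the table, Pax3 and Neurog2 had no value in any library, and Pax6 was at 48.3 in total RNA. Pax6 varied widely, from 16.1 to 140.24 in total RNA (highest in replicate 1 at 30 min) and from 9.05 to 179 in labeled RNA (highest in replicate 2 at 60 min), and its part in the results was not tested.

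The labeled libraries differed in how much unspliced RNA they held. Introns took 14.8% and 13.9% of the signal in labeled replicate 1 at 15 and 60 min, and 9.35% and 10.8% in labeled replicates 1 and 2 at 30 min. In labeled replicate 2 they took 7.24% at 15 min and 6.99% at 60 min, which is within the 6.53% to 7.41% of the 6 total RNA libraries. These 2 libraries stood apart from their group, and by intron share they could not be told from total RNA. What set them apart was not tested, and whether they hold newly made RNA to the same extent as the other 4 is uncertain. They are called labeled RNA here because their labels say so and enter the values of labeled RNA unless stated otherwise, and most results that use them are also given without them.

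Several of the genes have near copies elsewhere in the genome, and this limits what their values mean. Windows of 100 bases from each gene's transcripts were looked up in all other transcripts of GENCODE M1, and 2272 of the 3104 windows of Amd1 were also in Amd2, an intronless copy that is annotated as protein coding. The coding sequences of both differ by 1 substitution in 1005 bases, G796C, with Amd1 first and positions counted from the A of the start codon. The stretch of coding bases 739 to 798 is shown because it holds that 1 base, in capitals, by which reads from either coding sequence can be assigned.
Amd1-201: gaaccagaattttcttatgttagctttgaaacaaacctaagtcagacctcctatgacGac
Amd2-201: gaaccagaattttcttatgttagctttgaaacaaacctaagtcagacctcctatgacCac
Amd2 was listed at 374 in total RNA on average, near the 448 of Amd1, and Amd-ps3, Amd-ps4 and Amd-ps1, other copies of the gene, were listed at 385, 332 and 521. How many of these reads came from Amd1 was not tested, and the values of Amd1 are uncertain for that reason. Oaz1 shared 482 of 972 windows with Gm9786 (449 in labeled and 640 in total RNA), and Sms shared 1002 of 3618 with Gm14680 (324 and 521). Odc1 shared windows with 5 other genes, at most 167 of 2448 with Gm17709 (902 and 1157), and Oaz2 shared 44 of 1587 with Gm9329. No shared window was found for Srm, Azin1 or Sat1.

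In total RNA, the reference transcripts of Odc1 and Oaz1 were the most abundant of the 8 and that of Sat1 the least. To compare genes on a scale per length, 1 transcript stood for each gene as its reference, the most abundant protein-coding one (for Oaz2, which has no protein-coding transcript in M1, the most abundant of any type). Odc1-202 was at 1318 ± 140 (SD, n = 6), Oaz1-201 at 919 ± 62.3, Srm-001 at 535 ± 57.9 and Amd1-201 at 448 ± 61.7. Sms-001 followed at 395 ± 72.0, Azin1-002 at 269 ± 37.7, Oaz2-006 at 153 ± 18.8 and Sat1-001 at 143 ± 17.1. This order holds for these transcripts only. Summed over all transcripts of a gene, which adds up isoforms that share exons, the total RNA values were 1714 for Srm, 1318 for Odc1, 1262 for Sms, 1245 for Azin1, 919 for Oaz1, 740.2 for Sat1, 498 for Oaz2 and 448 for Amd1. The libraries of Odc1 and Oaz1, of Oaz1 and Srm, and of Azin1 and Oaz2 did not overlap (1.43, 1.72 and 1.76 times), while those of Srm and Amd1, Amd1 and Sms, Sms and Azin1, and Oaz2 and Sat1 overlapped and their order is not separated by this spread. The genes lie on different chromosomes except for Amd1 with Oaz1 and Sat1 with Sms. In GRCm38 they are at chr12:17544808-17551502 (Odc1, ENSMUSG00000011179), chr10:40287458-40302188 (Amd1, ENSMUSG00000075232), chr4:148591513-148594619 (Srm, ENSMUSG00000006442), chrX:157443851-157492287 (Sms, ENSMUSG00000071708), chr10:80826656-80829290 (Oaz1, ENSMUSG00000035242), chr9:65676548-65690300 (Oaz2, ENSMUSG00000040652), chr15:38487430-38519294 (Azin1, ENSMUSG00000037458) and chrX:155213126-155216449 (Sat1, ENSMUSG00000025283).

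Labeled RNA was then compared with total RNA on the sum of each gene's exonic values. Odc1, Srm, Sms, Oaz1 and Azin1 were lower in labeled than in total RNA, at 0.592 times (Azin1) to 0.775 times (Oaz1) the total value, whereas Amd1, Oaz2 and Sat1 did not pass the test. Thus 5 of 8 members were lower and 0 were higher, with a median difference of -0.45 on the log2 scale. Over all 13977 genes tested, 11.6% were lower, 5.28% were higher and the median was -0.05. The test was limma on log2(value + 1) over all 12 libraries with labeling time as a covariate, and a gene was called at a Benjamini-Hochberg adjusted p under 0.05. In 3 members (Sms, Oaz1 and Azin1) all 6 labeled libraries lay below all 6 total RNA libraries, as did 7.28% of genes.

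**Figure D1:**
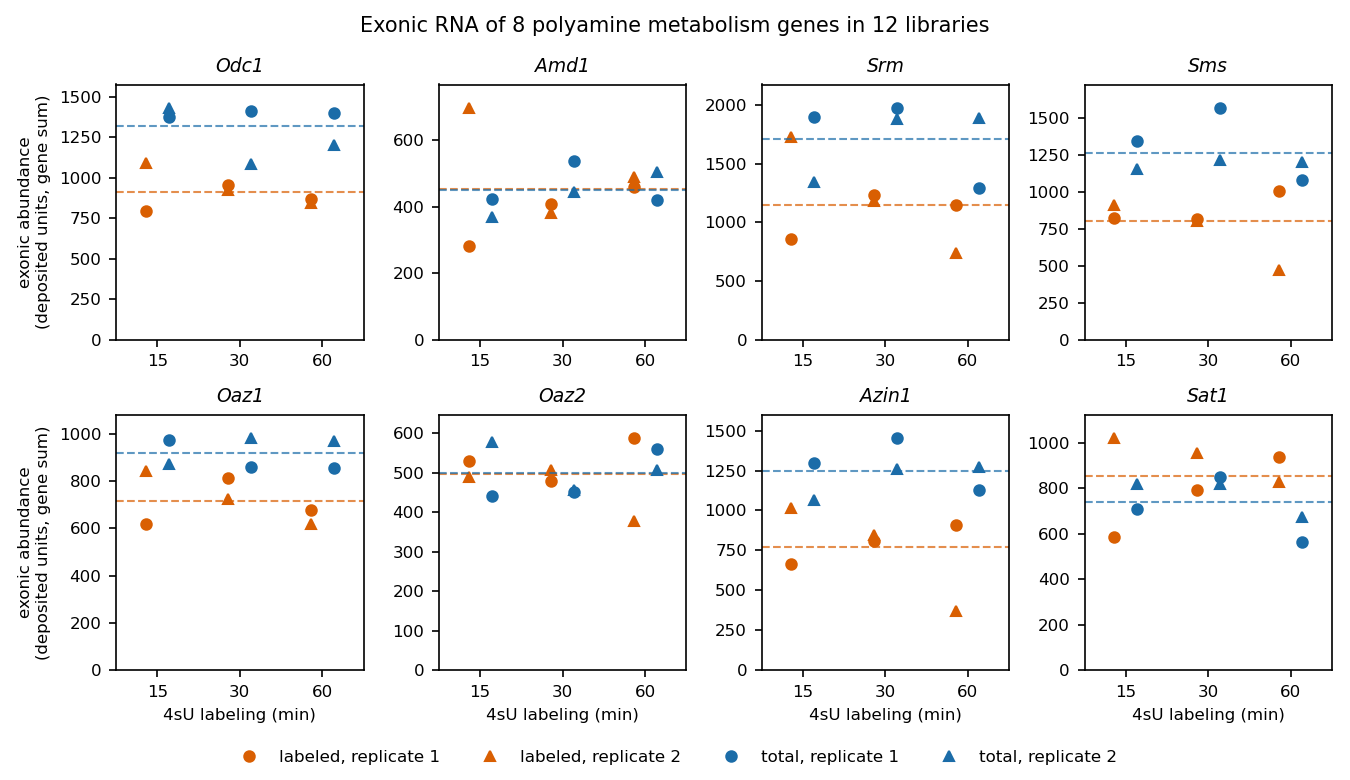
Exonic sum of each of the 8 genes (y axis, deposited unit) by labeling time in min (x axis) for labeled and total RNA, with circles for replicate 1, triangles for replicate 2 and dashed lines for the mean of each fraction. Labeled and total RNA do not overlap for Sms, Oaz1 and Azin1, touch in 1 library for Odc1 (1091 against 1086) and intermingle for Amd1, Oaz2 and Sat1.

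Odc1, the rate-limiting enzyme of the pathway, ranged from 793 through a median of 896 to 1091 in labeled RNA and from 1086 through 1386 to 1432 in total RNA. Labeled RNA was lower in 6 of 6 pairs of the same time and replicate, and only labeled replicate 2 at 15 min reached the lowest total RNA library, replicate 2 at 30 min. This was a log2 difference of -0.53 (SE 0.11, 95% interval -0.77 to -0.29, limma adjusted p = 0.00887). This call held in each of the 12 fits with 1 library left out (adjusted p 0.00565 to 0.0262), and with the 15 min libraries left out its adjusted p was 0.0558. Without either labeled library that stood apart it was -0.57 (adjusted p = 0.00832).

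Amd1, whose product decarboxylates S-adenosylmethionine, ranged from 279.98 through 433 to 697 in labeled RNA and from 368 through 432 to 538 in total RNA. The labeled libraries spanned the total ones on both sides. The log2 difference was -0.03 (95% interval -0.45 to 0.39, adjusted p = 0.931 by limma), and its sign turned under median-ratio scaling. In the 2 replicates at 15 min labeled RNA was 0.664 and 1.89 times total RNA, so the pair that includes labeled replicate 2 went the other way from the first. Without the labeled libraries that stood apart the difference was -0.27 (adjusted p = 0.125).

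Srm, which makes spermidine, ranged from 735 through 1163 to 1731 in labeled RNA and from 1295 through 1885 to 1977 in total RNA. Labeled RNA was lower in 5 of 6 pairs, and the ranges overlapped. The log2 difference of -0.61 (SE 0.19, 95% interval -1.03 to -0.19) passed narrowly (limma adjusted p = 0.0480). It failed in 9 of the 12 fits with 1 library left out (adjusted p 0.0604 to 0.110) and passed only without labeled replicate 2 at 15 min, labeled replicate 1 at 60 min or total replicate 2 at 15 min. By limma with the replicate as a block the adjusted p was 0.116, with no filter 0.0738 and with no trend 0.0642.

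Sms, which makes spermine, ranged from 469.62 through 819.7 to 1009 in labeled RNA and from 1083 through 1209 to 1569 in total RNA. All labeled libraries were below all total ones. The fit gave a log2 difference of -0.67 (SE 0.17, 95% interval -1.03 to -0.31, limma adjusted p = 0.0186). It failed with 1 of the 12 libraries left out, labeled replicate 2 at 30 min (adjusted p = 0.0505), and it passed with the replicate block (adjusted p = 0.0452).

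Oaz1, the more abundant antizyme, ranged from 618 through 701 to 842 in labeled RNA and from 856 through 919.97 to 982 in total RNA. The fractions did not overlap, but the gap between them was small. In log2 terms the difference was -0.37 (SE 0.11, 95% interval -0.60 to -0.13, limma adjusted p = 0.0365), the least negative of the members called. With 1 library left out it passed in 5 fits, without labeled replicate 2 at 15 min, replicate 1 at 30 min or replicate 1 at 60 min, or total replicate 2 at 15 min or replicate 1 at 30 min, and failed in the other 7 (adjusted p 0.0507 to 0.0869). With the replicate block the adjusted p was 0.104. Oaz2, the second antizyme, ranged from 378 through 499 to 588 in labeled RNA and from 440.06 through 480.3 to 577 in total RNA. The fractions overlapped almost fully. Its log2 difference was -0.01 (95% interval -0.29 to 0.27, limma adjusted p = 0.962), with a sign that turned under median-ratio scaling and without the labeled libraries that stood apart.

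Azin1, a catalytically inactive relative of ODC1 that binds antizyme, ranged from 369 through 828.7 to 1017 in labeled RNA and from 1067 through 1264 to 1454 in total RNA. Over all 12 libraries it had the most negative difference of the members, and the fractions did not overlap. Without both labeled libraries that stood apart the difference of Srm was more negative than that of Azin1. The log2 difference of Azin1 was -0.76 (SE 0.20, 95% interval -1.20 to -0.31, limma adjusted p = 0.0270), and without both libraries that stood apart it was -0.65 (adjusted p = 0.00391). The lowest value was that of labeled replicate 2 at 60 min. With 1 library left out Azin1 passed in 4 fits, without labeled replicate 2 at 15 min or either labeled replicate at 60 min, or total replicate 2 at 15 min, and failed in 8 (adjusted p 0.0529 to 0.0694). With the replicate block the adjusted p was 0.0602.

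Sat1, the acetyltransferase, ranged from 585 through 884 to 1022 in labeled RNA and from 565 through 765 to 852 in total RNA. Labeled RNA was not lower in 4 of 6 pairs and the ranges overlapped. The log2 difference was 0.20 (SE 0.15, 95% interval -0.13 to 0.53, limma adjusted p = 0.389), and 0.09 without the labeled libraries that stood apart (adjusted p = 0.708). Per length, Sat1-001 was 0.180 ± 0.0271 of Odc1-202 in labeled RNA and 0.109 ± 0.0165 in total RNA (SD, n = 6), and the ranges of 0.147 to 0.219 and 0.0878 to 0.136 did not overlap. This ratio of a breakdown to a synthesis enzyme is a description and carries no test. Odc1-202, by which it divides, was itself lower in labeled RNA, and how often ratios of other genes separate was not counted. Oaz1-201 was 0.783 ± 0.0374 of Odc1-202 in labeled and 0.708 ± 0.124 in total RNA, and Amd1-201 was 0.490 ± 0.110 and 0.345 ± 0.0658. These overlapped between the fractions, as did Azin1-002 to Odc1-202 at 0.159 ± 0.0447 and 0.207 ± 0.0394. The other ratios taken overlapped too. They were Oaz1-201 to Azin1-002 (5.41 and 3.46), Oaz2-006 to Oaz1-201 (0.191 and 0.167) and Sms-001 to Srm-001 (0.680 and 0.736).

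**Figure D2:**
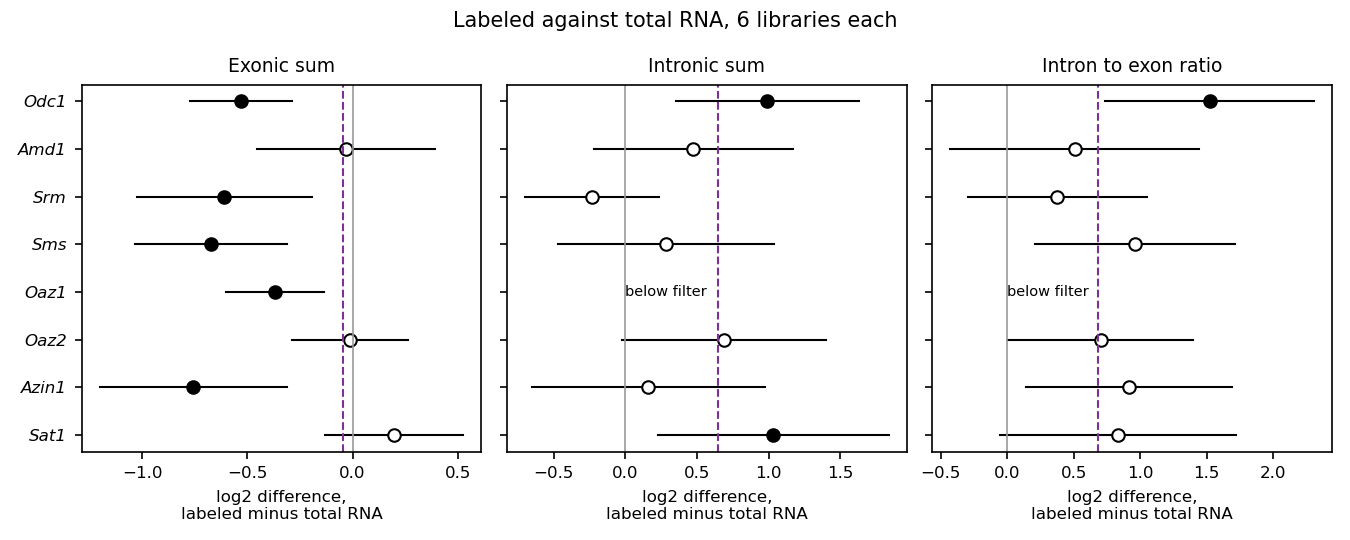
Log2 difference between labeled and total RNA (x axis) for exonic sums, intronic sums and the intron to exon ratio of each gene, as points with 95% intervals from limma, in black where the adjusted p was under 0.05. Grey lines mark 0 and dashed lines the median of all genes tested, and the signs of Amd1 and Oaz2 for exons turn under median-ratio scaling.

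With the 2 labeled libraries that stood apart left out, the same 5 members passed the exonic test (14.7% of all genes were then lower), with differences of -0.57 for Odc1, -0.67 for Srm, -0.55 for Sms, -0.40 for Oaz1 and -0.65 for Azin1. With the replicate as a block, Odc1 and Sms passed and Srm, Oaz1 and Azin1 did not, when 5.83% of all genes were lower. With the 15 min libraries left out, 0 of 8 passed (adjusted p 0.0558 to 0.0974 for the 5), when 4.01% of all genes were lower.

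Unspliced RNA was read from the intronic sums. Odc1 and Sat1 were higher in labeled than in total RNA, and 5 further members did not pass. This is 2 of 7 members tested, against 32.3% of all 9117 genes tested, so their share was near the background. Oaz1 fell under the filter on low values. The median difference was 0.47 over the 7 members and 0.65 over all genes, most of which did not pass the test.

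**Figure D3:**
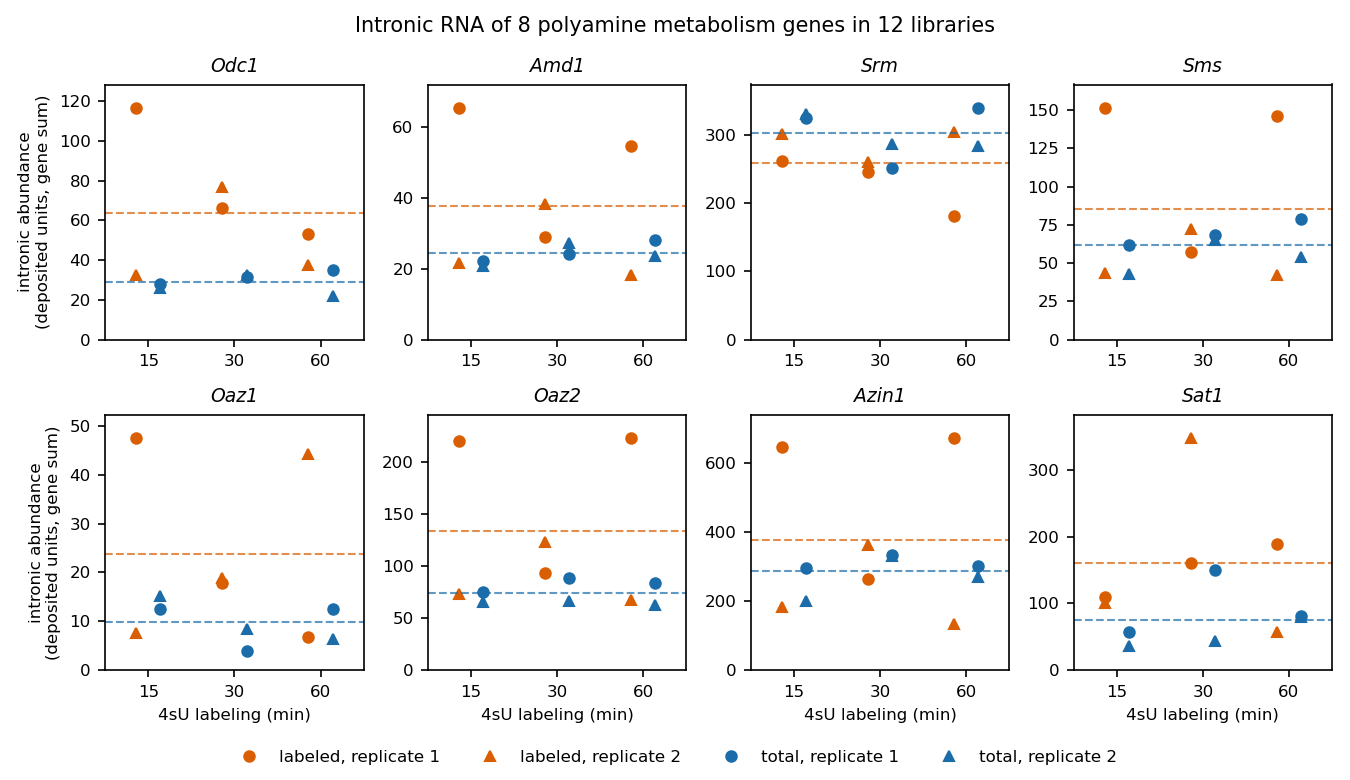
Intronic sum of each gene (y axis, deposited unit) by labeling time in min (x axis) for labeled and total RNA, with circles for replicate 1, triangles for replicate 2 and dashed lines for the mean of each fraction. Labeled replicate 2 at 15 and 60 min lies near total RNA in most panels, and all 8 genes overlap between the fractions.

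For Odc1 the intronic sum ranged from 32.6 through 59.8 to 117 in labeled RNA and from 22.1 through 29.7 to 34.95 in total RNA. It was not lower in labeled RNA in any of the 6 pairs, and the lowest labeled library fell within the total ones. The fitted log2 difference was 0.99 (SE 0.30, limma adjusted p = 0.0217). The call was lost without labeled replicate 2 at 30 min or total replicate 2 at 15 min, replicate 1 at 30 min or replicate 2 at 60 min (adjusted p 0.0524 to 0.0604).

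For Sat1 it ranged from 57.8 through 135 to 348 in labeled RNA and from 35.8 through 68.8 to 150.04 in total RNA. The fractions overlapped and labeled RNA was higher in 5 of 6 pairs. Of the 348 in labeled replicate 2 at 30 min, 151 was intron signal of Sat1-004, a transcript whose introns had no value in the other 11 libraries. The log2 difference was 1.03 (SE 0.38, limma adjusted p = 0.0487), and the call held without labeled replicate 2 at 60 min or total replicate 1 at 30 min and was lost in the other 10 fits with 1 library left out (adjusted p 0.0507 to 0.137). In the annotation, 74.8% of the intron bases of Sat1-001 are exon in another transcript of the gene, so exonic RNA of other isoforms and unspliced RNA cannot be told apart there. With 15 min left out the adjusted p was 0.206, with no filter 0.062, with a filter of 100 0.0593 and with no trend 0.052. Without the introns of Sat1-004 the difference was 0.90 (limma adjusted p = 0.0623) and was not called.

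Srm was the one member with a negative intronic difference, at -0.23 (limma adjusted p = 0.396). Its intronic sum was carried by Srm-003, a processed transcript (233 in labeled and 294 in total RNA), 45.1% of whose intron bases are exon elsewhere in the gene. The introns of Srm-001 were at 10.5 in labeled and 3.49 in total RNA. Amd1 was at 0.47, Sms at 0.28, Oaz2 at 0.69 and Azin1 at 0.16, with limma adjusted p from 0.117 to 0.746. Without the 2 labeled libraries that stood apart, 6 of 7 members were higher, all but Srm, from 0.71 for Azin1 to 1.36 for Sat1, when 88.7% of all genes were.

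The ratio of intronic to exonic sums set both measures against each other. Odc1 was 1.52 higher in labeled RNA on the log2 scale (SE 0.37, 95% interval 0.74 to 2.30, limma adjusted p = 0.0113), at the 95.7th percentile of all 7731 genes tested, which had a median of 0.68. It was the 1 member of 7 that passed, against 26.8% of genes, and it did so in all 12 fits with 1 library left out (adjusted p 0.00124 to 0.0381). Sms (0.96, adjusted p = 0.0545) and Azin1 (0.91, adjusted p = 0.0690) missed the threshold and passed with the replicate block (adjusted p = 0.0316 and 0.0321 by limma), when 35.7% of all genes were higher. Srm had the lowest ratio difference, 0.38, and its intronic sum is mostly that of Srm-003. In percent of the exonic and intronic values of the reference transcript together, introns of Odc1-202 were at 6.66 ± 3.46 in labeled and 2.18 ± 0.431 in total RNA. Azin1-002, the transcript with the highest share, was at 24.4 ± 11.3 and 12.2 ± 1.80 (SD, n = 6), and Srm-001 at 3.01 ± 1.07 and 0.686 ± 0.713, which overlapped (1.68 to 4.12 and, with missing values as 0, 0 to 2.02). Without the 2 labeled libraries that stood apart, 6 of 7 members were higher, all but Srm, when 82.6% of genes were.

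Isoforms were compared next. Of 30 member transcripts tested, 9 were lower in labeled RNA and 0 higher, when 12% of all 45537 transcripts tested were lower and 5.28% higher. They were Odc1-202 (-0.53, limma adjusted p = 0.00929), Srm-001 (-0.62, adjusted p = 0.0126), Sms-001 (-0.76, adjusted p = 0.0217), Oaz1-201 (-0.37, adjusted p = 0.0370) and 5 of the 8 transcripts of Azin1. Among the latter were the protein-coding Azin1-002 (-0.95, limma adjusted p = 0.0199), Azin1-001 (-0.96), Azin1-005 (-0.77) and Azin1-008 (-0.61), and Azin1-003 (-0.87), which is annotated as a target of nonsense-mediated decay. Azin1-002 was at 66.0 to 209 in labeled and 221 to 321 in total RNA. Azin1-004, which retains an intron, was at 61.3 and 57.0 on average, with a log2 difference of 0.01 (limma adjusted p = 0.985). Azin1-006, a processed transcript, was at 31.8 and 29.9. Reads of overlapping isoforms are divided by estimate, so the transcripts of 1 gene are not independent. With the replicate block 5 of the 9 passed, and Oaz1-201, Azin1-001, Azin1-003 and Sms-001 did not (adjusted p 0.108, 0.0691, 0.05004 and 0.0551), when 6.12% of all transcripts were lower. With the 15 min libraries left out 1 of the 9 passed, Srm-001 (limma adjusted p = 0.0269), and the other 8 did not (adjusted p 0.0571 to 0.145), when 4.19% of all transcripts were lower. All 9 passed without the 2 labeled libraries that stood apart, when 16.3% were lower. With 1 library left out, Odc1-202 and Srm-001 passed in all 12 fits, Azin1-002 and Azin1-003 failed without labeled replicate 1 at 15 min or total replicate 2 at 60 min, and the other 5 failed in 6 to 9 fits, always including those without labeled replicate 1 at 15 min or either labeled replicate at 30 min.

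Transcripts annotated as other than protein coding were on average the most abundant of several genes in total RNA. Srm-002, which retains an intron, was at 647 against 535 for Srm-001. Sms-005, an annotated decay target, was at 551 against 395 for Sms-001, and Azin1-003 was at 356 against 269 for Azin1-002. Sat1-007, with a retained intron, was at 149 against 143 for Sat1-001. Their total RNA libraries overlapped (82.3 to 206 and 123 to 167), so this order is not separated. Sat1-002 (139), Sat1-003 (94.5), Sat1-006 (79.5) and Sat1-004 (19.2, with 32.0 in labeled RNA) followed. For Oaz2 the antisense-type Oaz2-006 (153) led the pseudogene-type Oaz2-001 (146) and the retained-intron types Oaz2-201 (117) and Oaz2-007 (49.3). Srm-003 was at 531, and Sms-004 and Sms-003, both with a retained intron, at 107 and 65.3. Apart from Azin1-003, 0 of these passed the test between labeled and total RNA, with limma adjusted p from 0.0643 for Sms-005 upward. These types are those of the GENCODE M1 annotation. As a share of its gene, 1 member transcript differed between the fractions, Oaz2-006, which was lower in labeled RNA by a log2 value of -0.17 (SE 0.03, limma adjusted p = 0.0351), when 1.13% of 27272 transcripts were called in either direction. This passed without labeled replicate 2 at 15 min or at 60 min and failed in the other 10 fits with 1 library left out, and its adjusted p was 0.118 with the replicate block and 0.207 with 15 min left out. It was 0.0272 without the 2 labeled libraries that stood apart, when 6.13% of transcripts were called.

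Labeling time was tested next. Between 15 and 60 min, 0 of 13977 genes differed in labeled RNA, in total RNA or in the difference of both by limma. At an unadjusted p under 0.05 there were 178, 108 and 162 genes, with 0 members among them. By labeling time, the exonic difference of Odc1 was -0.59 at 15 min, -0.40 at 30 min and -0.60 at 60 min. That of Azin1 was -0.51, -0.71 and -1.05, but its replicates went different ways, at -0.96, -0.84 and -0.31 in the pairs of replicate 1 and -0.07, -0.57 and -1.78 in those of replicate 2, whose labeled libraries at 15 and 60 min stood apart. That of Sat1 was 0.02, 0.06 and 0.51, with -0.28, -0.10 and 0.73 in the pairs of replicate 1. In those of replicate 2 it was 0.32, 0.23 and 0.30, with no rise. No member passed at a single labeling time, where 0, 4 (0.0286%) and 0 genes did.

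Rates of synthesis, processing and degradation were taken as ratios of labeled to total RNA, as a description. Degradation is labeled exonic RNA per hour of labeling divided by total RNA of spliced form, and it is relative because all libraries share 1 sum. All 8 members lay below the median of 2.86 over 13097 protein-coding genes. Sms was at 1.60 (1.55 and 1.70 in the 2 replicates), the 4.41st percentile, and Odc1 at 1.65 (1.46 and 1.86), the 5.41st. Oaz1 was at 1.87, Azin1 at 1.97 and Srm at 2.07, with 1.60 and 2.93 in the 2 replicates of Srm. Amd1 at 2.68 (1.86 and 3.63), Oaz2 at 2.78 (3.23 and 2.43) and Sat1 at 2.83 (2.59 and 3.02) were close to the median, and the replicates of all 3 fell on both sides of it. Relative to the median of protein-coding genes at the same time, Odc1 was at 0.567, 0.665 and 0.573 at 15, 30 and 60 min and Sms at 0.601, 0.527 and 0.584, while Sat1 was at 0.926, 1.02 and 1.40. The first pair was below the median at all 3 times. Without the 2 labeled libraries that stood apart the median was 2.73, over 13211 protein-coding genes and not the 13097 above. Odc1 was then at 1.51 (5.32nd percentile), Sms at 1.64 (8.64th), Srm at 1.67, Oaz1 at 1.72, Azin1 at 1.82, Amd1 at 1.92 and Sat1 at 2.45. Oaz2, at 2.92, was then above the median. These values use the same exonic sums as the comparison above and do not add to it.

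**Figure D4:**
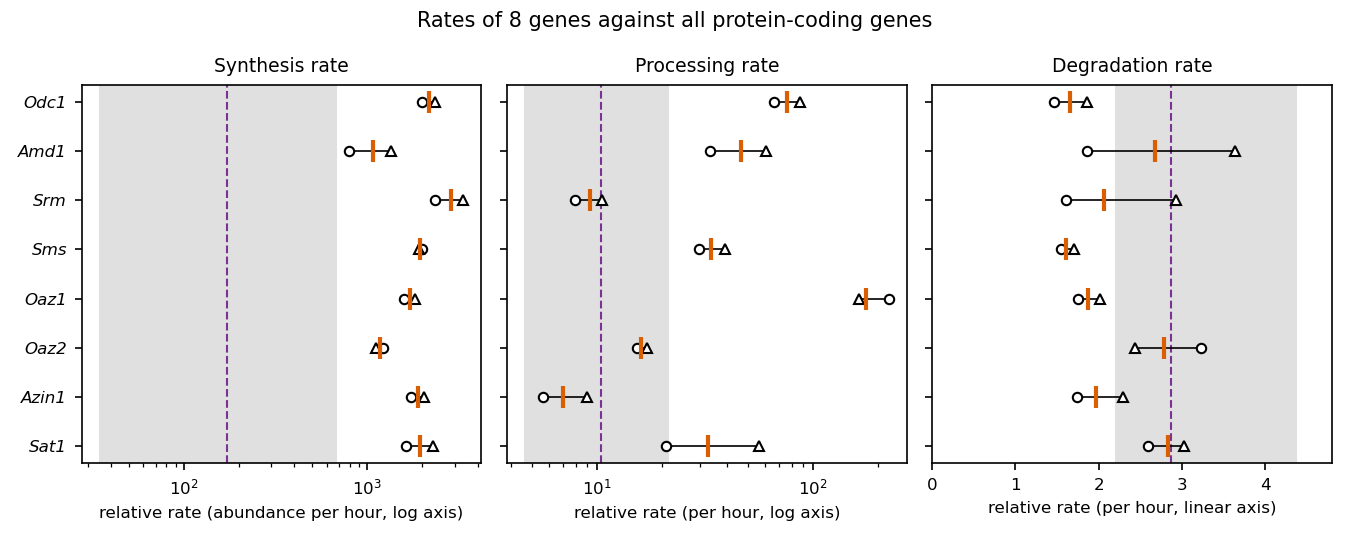
Relative rates of synthesis, processing (both on a log axis) and degradation (linear axis) of the 8 genes, with a circle for replicate 1, a triangle for replicate 2 and an orange tick for the average over labeling times. The grey band spans the quartiles and the dashed line the median of protein-coding genes, and Sms (1.60) and Odc1 (1.65) have the lowest degradation values.

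Synthesis, which is labeled RNA per hour summed over transcripts, was high for all 8. It lay between the 82.1st percentile for Amd1 and the 92.5th for Srm among 15228 protein-coding genes. Without the labeled libraries that stood apart it lay between the 79.8th for Amd1 and the 91.8th for Srm, among 16304 protein-coding genes. Processing, which is synthesis divided by the intronic sum of total RNA, spread more widely. Oaz1 was at 177 (98.6th percentile), Odc1 at 76.2 (95.7th) and Amd1 at 46.6 (91.1st), against a median of 10.5 over 13019 genes. The value of Oaz1 divides by low intronic sums of 3.85 to 15.14 in total RNA, and the filter on low values kept Oaz1 out of the intronic test. Relative to the median at the same time, Oaz1 was at 10.9, 30.5 and 15.1 at 15, 30 and 60 min. The exonic values of Oaz1 and Amd1 may include reads of Gm9786 and Amd2, with which they share windows. The part of these copies in the processing values was not tested. Azin1, at 6.96 (35.7th), and Srm, at 9.28 (45.6th), were the members below the median, and the value of Srm rests on the introns of Srm-003. Sms (33.8), Sat1 (32.7) and Oaz2 (16.1) lay between. By reference transcript, Srm-001 was at 391 (99.5th percentile) and Azin1-002 at 10.3 (49.1st). The median was 10.6 over 28486 protein-coding transcripts. The introns of Srm-001 were at only 3.49 in total RNA, so the place of Srm depends on the transcripts used and is not settled. For gene sums without the 2 labeled libraries that stood apart, Azin1 (6.32) and Srm (7.72) stayed below the median, and Amd1 was at 33.4. That median was 9.75, over 13443 genes and not the 13019 above.

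Across the 12 libraries, Sms and Azin1 went together most closely among the members (Pearson r 0.965), and Srm followed Azin1 (0.920) and Oaz1 (0.912), while Odc1 and Sat1 did not go together (-0.183). The gene most like each member among 13977 was Cct5 for Odc1 (0.976), Ube2g1 for Srm (0.987), Gm12612 for Oaz1 (0.975), Rars2 for Oaz2 (0.883), Cbx3 for Azin1 (0.990) and Lpin1 for Sat1 (0.938). For Amd1 it was Amd2 (0.984) and for Sms it was Gm14680 (0.995), the copies with which they share windows. The libraries share the division into labeled and total RNA and the replicate, so these values describe the 12 libraries only. Among total libraries, replicate 2 at 15 min and replicate 1 at 60 min were lowest in Srm-003 (364 and 355, others 592 to 676). They were also lowest in Azin1-001 (190 and 202, others 256 to 306) and highest in Sms-002 (245 and 207, others 94.1 to 119). The part of this in the correlations was not tested. Without the 2 labeled libraries that stood apart, Sms and Azin1 were at 0.939, Srm and Azin1 at 0.945, Srm and Oaz1 at 0.897 and Odc1 and Sat1 at -0.162. Rars2 with Oaz2 was then at 0.791. Some pairs with Amd1 or Oaz2 moved much more. Amd1 went from 0.216 to 0.788 with Azin1 and from 0.109 to 0.679 with Sms. Oaz2 went from 0.325 to -0.451 with Azin1 and from -0.000254 to -0.654 with Srm. The correlations among members thus depend in part on these 2 libraries.

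Promoter sequence is shown where a short motif was found near the start. Odc1 is a textbook target of MYC, a factor that binds the E-box. In RefSeq (GRCm38.p6), 6 of the genes had 7 windows of the 250 bases before a start site, and Srm and Azin1 had none. The palindromic E-box CACGTG was in 1 of the 7, the upstream one of the 2 windows of Sms, and in 6.02% of all 32851 such windows. Of that window, the bases from 242 to 143 before the start site, chrX:157492430-157492529 on the minus strand, are printed with the E-box in capitals.
Sms: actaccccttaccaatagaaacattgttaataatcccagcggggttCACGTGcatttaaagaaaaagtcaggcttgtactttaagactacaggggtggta
The letters TATANAA, looked for on both strands after the windows had been seen, were in 1 of 7 windows, that of Amd1, and in 10.4% of all windows. The 100 bases before its start at chr10:40302189-40302288, minus strand, are printed with the match and the overlapping second match in capitals.
Amd1: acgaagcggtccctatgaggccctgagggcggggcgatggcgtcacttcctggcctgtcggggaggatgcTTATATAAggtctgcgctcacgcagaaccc
Such a match is a description and not a binding site.

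Genes around the pathway were read from lists of 28 genes, of which 27 had an exon entry and 22 were tested for exons. Mat1a and Satl1 had no exonic value in any of the 12 libraries. Azin2, the second antizyme inhibitor, was higher in labeled RNA and Adi1, Atp13a3 and Eif5a2 were lower, and the median over the 22 was 0.02. These 1 higher and 3 lower of 22 are near the 5.28% and 11.6% of all genes. Azin2 was at 54.6 ± 9.61 in labeled and 27.7 ± 5.76 in total RNA (SD, n = 6) 0.96 higher on the log2 scale (limma adjusted p = 0.00602), and all 6 labeled libraries lay above all 6 total ones, as in 2.72% of genes. Adi1, an enzyme of methylthioadenosine salvage that recycles the byproduct of both synthases, was at 883 and 1275 (-0.53, limma adjusted p = 0.00351). Atp13a3, a polyamine transporter, was at 956 and 1720 (-0.87, limma adjusted p = 0.0125). Eif5a2, a translation factor that carries the spermidine-derived residue hypusine, was at 35.5 and 56.1 (-0.66, limma adjusted p = 0.0189), but its adjusted p was 0.0553 with the replicate block and 0.0514 without total replicate 2 at 30 min. All labeled libraries of the last 3 lay below all total ones, as in 7.28% of genes. With the 15 min libraries left out Adi1 passed (adjusted p = 0.0195) and Azin2, Atp13a3 and Eif5a2 did not (adjusted p 0.0646 to 0.0763). All 4 passed without the 2 labeled libraries that stood apart, when 8.49% of genes were higher and 14.7% lower.

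By list, 1 of 1 tested antizyme family gene was higher, when 5.28% of all genes were. Lower were 1 of 4 hypusination genes, 1 of 5 salvage genes and 1 of 5 transport genes, when 11.6% of all genes were. Of the catabolism genes 0 of 3 passed, of the precursor genes 0 of 3 and of the retrocopy 0 of 1. Eif5a, by far the most abundant of the listed genes, was at 40285 in labeled and 48492 in total RNA (limma adjusted p = 0.127). Mat2b, a subunit of the enzyme that makes S-adenosylmethionine, was at 1769 and 1535 (adjusted p = 0.268 by limma). Paox, the oxidase that acts after SAT1, was at 58.4 and 70.7.

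For introns, 7 of the 18 pathway genes tested were higher in labeled RNA, near the background of 32.3%. They were the hypusination genes Eif5a (1.21, limma adjusted p = 0.0104) and Dohh (1.10, adjusted p = 0.00430), the salvage genes Mri1 (1.06, adjusted p = 0.00421) and Apip (1.01, adjusted p = 0.0127), the transporter subunit Slc3a2 (1.31, adjusted p = 0.00516), Azin2 (1.20, adjusted p = 0.0166) and the spermine oxidase Smox (1.08, adjusted p = 0.0292). The first 6 named passed in each of the 12 fits with 1 library left out. With 15 min left out Apip did not pass (adjusted p = 0.0568) and the other 6 did, when 19.4% of genes were higher, and without the 2 labeled libraries that stood apart all 7 passed, when 88.7% were. Smox failed in 6 of them, without labeled replicate 1 at 15 min, replicate 2 at 30 min or replicate 1 at 60 min, or total replicate 1 at 30 min or either replicate at 60 min. Slc3a2 had 154 in labeled RNA at the median against 56.6 in total RNA, while its exonic value was at 802 and 745 on average.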

How the data were processed

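Labeled and total RNA of 12 mESC libraries were analysed from 1 deposited table of exonic and intronic values. The deposited unit is a signal: abundances the authors made after removal of rRNA reads, with exons and introns scaled to 1 sum per library. The scaling is not named in the sources used here, length normalization was inferred from the values, and no value of 1 or less is present. The submitters' processing notes name STAR 2.5.0, RSEM and mm10. Missing values were taken as 0. Of 121429 exon and 91702 intron entries, 83847 and 72792 were matched by identifier to GENCODE M1, which gave genes, transcript types and windows. Positions and promoters are from RefSeq GRCm38.p6.

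Values were summed per gene, filtered at a mean of 20 or more, and compared as log2(value + 1) with limma 3.58.1 in R 4.3.3 (labeling time as covariate, mean-variance trend, Benjamini-Hochberg adjustment over all features tested, threshold 0.05). Fold changes of low genes are understated on this scale. Rates are ratios, and INSPEcT was not run. The fit was tested on simulated data. Other steps used Python 3.11.15, numpy 2.4.6, pandas 2.3.3 and matplotlib 3.10.9. Alternatives were the pseudocount, filter, trend, scaling, replicate block and libraries left out. Leaving out the 2 labeled libraries that stood apart, and the introns of Sat1-004, was chosen after seeing the data.

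The labels number the biological replicates, described as parts of 1 culture passaged separately, and the replicate block pairs labeled and total RNA of the same number and time. Same-numbered libraries did not deviate together: the deviations of labeled and total libraries from their group means correlated with r = -0.07, 0.05 and -0.19 in order of labeling time.

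The members, gene lists and tests were chosen with earlier results of these data known. Named were all members, their most abundant and called transcripts, and part of their non-coding ones. Also named were the most abundant and called genes of each pathway list, and the gene most like each member.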

Additional observations from a re-analysis of the deposited data

Results flagged for a closer look

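Dixon's criterion for an outlying value was applied to 32 groups of 6 libraries and met by 0 of them, where chance would give 1.6. It looks for 1 value apart from the rest and cannot flag 2 libraries that lie low together. Labeled replicate 2 at 15 and 60 min did so for introns, as for Sms (43.7 and 42.2). The result therefore does not show that these libraries are like the others. No effect differed between labeling times in limma's test of the difference at the settings of the report.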

How the results depend on the processing

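The exonic count of 2353 genes was 1270 with the replicate block (pairing by number) and 751 with 15 min left out. With replicate numbers crossed at 60 min, 2716 genes were called. The intronic count of 2976 was 4659 with no filter, 834 with a filter of 100, 1775 with 15 min left out and 8141 without the 2 labeled libraries that stood apart. The ratio count of 2091 was 774 with a filter of 100 and 6433 without these libraries. The transcript count of 7888 was 5063 with a filter of 100, 4470 with the replicate block, 2733 with 15 min left out and 12699 without these libraries. The count for isoform shares, 307, was 768 with a pseudocount of 20, 22 with no filter, 118 with a filter of 100, 13 with the block, 144 with crossed numbers, 0 with 15 min left out and 1672 without these libraries. Between 60 and 15 min, 0 calls became 6 with no filter and 2 with no trend in labeled RNA. In total RNA they became 4 with a pseudocount of 20, 8 with no filter, 4 with no trend and 3 with median-ratio scaling, and for the difference of both 4, 8 and 5 with the first 3 of these. The median degradation value of the 8 genes, 2.02, was 3.80 from 15 min alone and 0.727 from 60 min alone. Signs turned for Amd1 (0.0166) and Oaz2 (0.0360) exons with median-ratio scaling, for Oaz2 exons (0.11) without the 2 labeled libraries, and for Azin1 introns (-0.0131) with 15 min left out. The cause was not tested.

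With 1 library or 1 replicate left out, counts ran from 0 to 2931 for exons, 1094 to 5086 for introns, 252 to 4824 for the ratio, 0 to 10439 for transcripts and 0 to 850 for isoform shares. With 1 library left out (no whole replicate was left out here) they ran from 0 to 8, 0 to 7 and 0 to 11 for the time contrasts in labeled RNA, total RNA and their difference. The degradation median, computed with 1 replicate left out but not with single libraries left out, was 1.75 and 2.36. Log2 differences ran from -0.29 to 0.22 for Amd1 exons, -0.17 to 0.14 for Oaz2 exons, -0.33 to 0.65 for Azin1 introns, -0.0608 to 0.63 for Sms introns and -0.18 to 1.19 for the Amd1 ratio. With a whole replicate left out, 0 members passed the exonic test, when 0 (without replicate 1) and 5 (without replicate 2) of all 13977 genes did, so this says nothing particular of the members. The median-ratio scaling shifted libraries by -0.26 to 0.12 (log2). The depth of single libraries cannot be read from the values.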
